A study of Homo sapiens with 12 samples.

Results

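The genes described here are 53 factors that license replication origins and build and protect the replication fork. They were taken as a fixed list of members, and a probe was assigned to a member when the RefSeq accession that the array gives for it belongs to that gene. All 53 members had a probe, 67 probes in all, and all 53 were among the 20818 genes tested of 27522 gene names, since their probes were well above background on all 12 arrays. U2OS cells, a human osteosarcoma line, received either control siRNA or siRNA against DBP5, GLE1 or IPPK, at 20 nM with Lipofectamine2000. The methods give 48 h of culture before the cytosol was separated with a detergent buffer, and the cytoplasmic RNA was labelled with Cy3 and hybridised to 3 arrays per siRNA. All 4 groups are the same unmodified line, and for control, GLE1 and IPPK, for which the methods list more than 1 siRNA, the sources used here do not say which was used for the arrays. The arrays hold cytoplasmic RNA alone, so a lower level on them does not tell how much of the RNA was made or kept in the nucleus.

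On the arrays, the siRNA targets were at 6.43% of control for DDX19B, the gene of DBP5, after DBP5 knock-down, at 10.2% for GLE1 after GLE1 knock-down and at 18.7% for IPPK after IPPK knock-down. The knock-downs were not separate in these transcripts: DDX19A, the paralog of DDX19B, was at 5.37% of control with DBP5 siRNA, 54.1% with GLE1 siRNA and 30.1% with IPPK siRNA, DDX19B was at 49% after GLE1 knock-down, and IPPK was at 42% after DBP5 knock-down (limma adjusted p under 0.05 in each). Of 5 transcripts fixed as defining for this line, RUNX2, SPARC, VIM and COL1A1 were well above background on 12 arrays and COL1A2 on 4. Of 6 markers of epithelial, blood and endothelial cells, EPCAM, PTPRC and CDH5 also passed this limit on 12 arrays, CD3E on 11, CDH1 on 8 and PECAM1 on 4, so the limit alone does not separate cell types. The share of probes well above background was 70.9% to 73.8% on the IPPK siRNA arrays and 73.4% to 77.7% on the others.

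DNA replication is prepared in G1 and carried out in S phase. The origin recognition complex (ORC) marks origins, CDC6 and CDT1 help it to load the ring of MCM2 to MCM7, and geminin (GMNN) blocks CDT1 once replication has begun. The kinase of CDC7 and DBF4, with TOPBP1, then recruits CDC45 and the GINS complex, which turn the MCM ring into the active helicase. Behind the helicase, RPA coats the exposed strands, the polymerases copy them with the clamp PCNA that RFC loads, nucleases and a ligase join the lagging-strand pieces, and CAF-1 deposits histones. Many of these genes are transcribed at the entry to S phase under E2F factors, and their mRNAs are exported to the cytoplasm through the nuclear pore, where DBP5, its activator GLE1 and IP6, which IPPK makes, act.

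The promoters of 46 members were found in a RefSeq table that gives 300 bases around each gene's start, 250 before and 50 after it. The E2F site was searched as TTTCCCGC, TTTCGCGC, TTTGGCGC and TTTGCCGC on both strands, where TTTGGCGC on a strand and TTTCGCGC on the opposite one can overlap. They were found in 20 of the 46 member promoters (43.5%) and in 908 of all 27305 promoters of this length (3.33%). The sequences below are shown because they belong to the member that was lowest after GLE1 knock-down (MCM6), a fork protection factor that was lower after each knock-down (CLSPN), a member that passed the test after GLE1 knock-down and not after the others (POLE2) and a member that was higher after each (GMNN). Each runs from 170 bases before to 30 bases after the gene's start, 5′ to 3′ on the strand of the gene, in GRCh38.p14, and capitals mark the E2F matches. MCM6 lies on the minus strand at chr2:135876414-135876613, CLSPN on the minus strand at chr1:35769949-35770148, POLE2 on the minus strand at chr14:49688185-49688384 and GMNN on the plus strand at chr6:24774767-24774966.
MCM6: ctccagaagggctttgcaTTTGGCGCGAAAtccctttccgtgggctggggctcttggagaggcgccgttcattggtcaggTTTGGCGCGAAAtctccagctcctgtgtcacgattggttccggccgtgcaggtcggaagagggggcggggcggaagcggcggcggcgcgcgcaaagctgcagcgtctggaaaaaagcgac
CLSPN: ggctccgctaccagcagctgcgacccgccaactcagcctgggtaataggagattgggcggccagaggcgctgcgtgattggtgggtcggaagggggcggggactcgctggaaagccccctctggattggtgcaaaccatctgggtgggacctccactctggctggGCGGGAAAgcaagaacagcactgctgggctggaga
POLE2: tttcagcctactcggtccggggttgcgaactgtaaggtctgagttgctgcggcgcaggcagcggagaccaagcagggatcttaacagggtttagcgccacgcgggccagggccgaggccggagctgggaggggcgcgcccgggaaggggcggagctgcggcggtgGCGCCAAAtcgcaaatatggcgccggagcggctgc
GMNN: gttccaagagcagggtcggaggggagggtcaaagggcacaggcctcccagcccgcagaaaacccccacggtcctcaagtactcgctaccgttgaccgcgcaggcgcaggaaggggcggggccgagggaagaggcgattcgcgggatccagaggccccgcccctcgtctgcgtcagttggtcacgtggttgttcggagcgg
The MCM6 window holds 4 matches in 2 identical runs of capitals, each read as TTTGGCGC on the strand of the gene and as TTTCGCGC on the other. CLSPN and POLE2 hold 1 match each, both starting 5 bases before the gene's start, and the GMNN window holds none of the 4 forms. Among the 39 members with a promoter that were lower after GLE1 knock-down, 19 held a match, and 1 of the 7 that were not lower, CDC6, did. Split by all 3 knock-downs, the shares were closer. Of the 26 members lower in all 3, 12 held a match (46.2%), and of the other 20, 8 did (40%). Members with a match had a median log2 fold change against control of -0.60 with DBP5 siRNA, -1.30 with GLE1 siRNA and -0.38 with IPPK siRNA. For members without one the medians were -0.44, -0.97 and -0.21. A match is a stretch of letters and not a measured site, and no test was made of these differences. The shorter box CCAAT was in 26 of the 46 member promoters (56.5%) and in 35.7% of all, and TTTGAA, a form of the CHR element of genes active in G2 and mitosis, in 1 of 46 and 15.4%, again on both strands.

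Most members were lower in the cytoplasm after each knock-down, and the falls were deepest after GLE1 knock-down. A member was taken as lower or higher when limma's two-sided test over all 20818 genes gave an adjusted p under 0.05 (Benjamini-Hochberg). After GLE1 knock-down 46 of 53 members were lower and 2 higher, where 31.5% of all genes tested were lower and 30.6% higher. After DBP5 knock-down 39 were lower and 6 higher, against 27.5% and 26.8% of all genes. With IPPK siRNA the counts were 34 and 4, against 28% and 27.3%. The 3 comparisons share their control arrays. Members at least 2-fold lower numbered 30 after GLE1, 5 after DBP5 and 2 after IPPK knock-down. These are 56.6%, 9.43% and 3.77% of the members, against 8.43%, 4.48% and 5.35% of all genes. The IPPK share thus lay below that of all genes.

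The median member was at 0.426 of its control intensity after GLE1, 0.697 after DBP5 and 0.813 after IPPK knock-down. On the log2 scale these medians were -1.23, -0.52 and -0.30, where the medians of all genes were 0.01, -0.02 and -0.03. All 3 knock-down arrays lay below all 3 control arrays for 47 members after GLE1, 40 after DBP5 and 38 after IPPK knock-down, and for 34.6%, 30.6% and 32.8% of all genes. They lay above all control arrays for 3, 6 and 9 members in that order, and for 33.9%, 28.5% and 30.9% of all genes. Within the slides, each of which held 1 array per siRNA, the member median of the log2 differences was -1.26, -1.27 and -1.24 after GLE1, -0.61, -0.50 and -0.48 after DBP5 and -0.29, -0.38 and -0.22 after IPPK knock-down. RNA of a whole culture was measured, so fewer cells in S phase and less RNA per cell cannot be told apart.

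**Figure D1:**
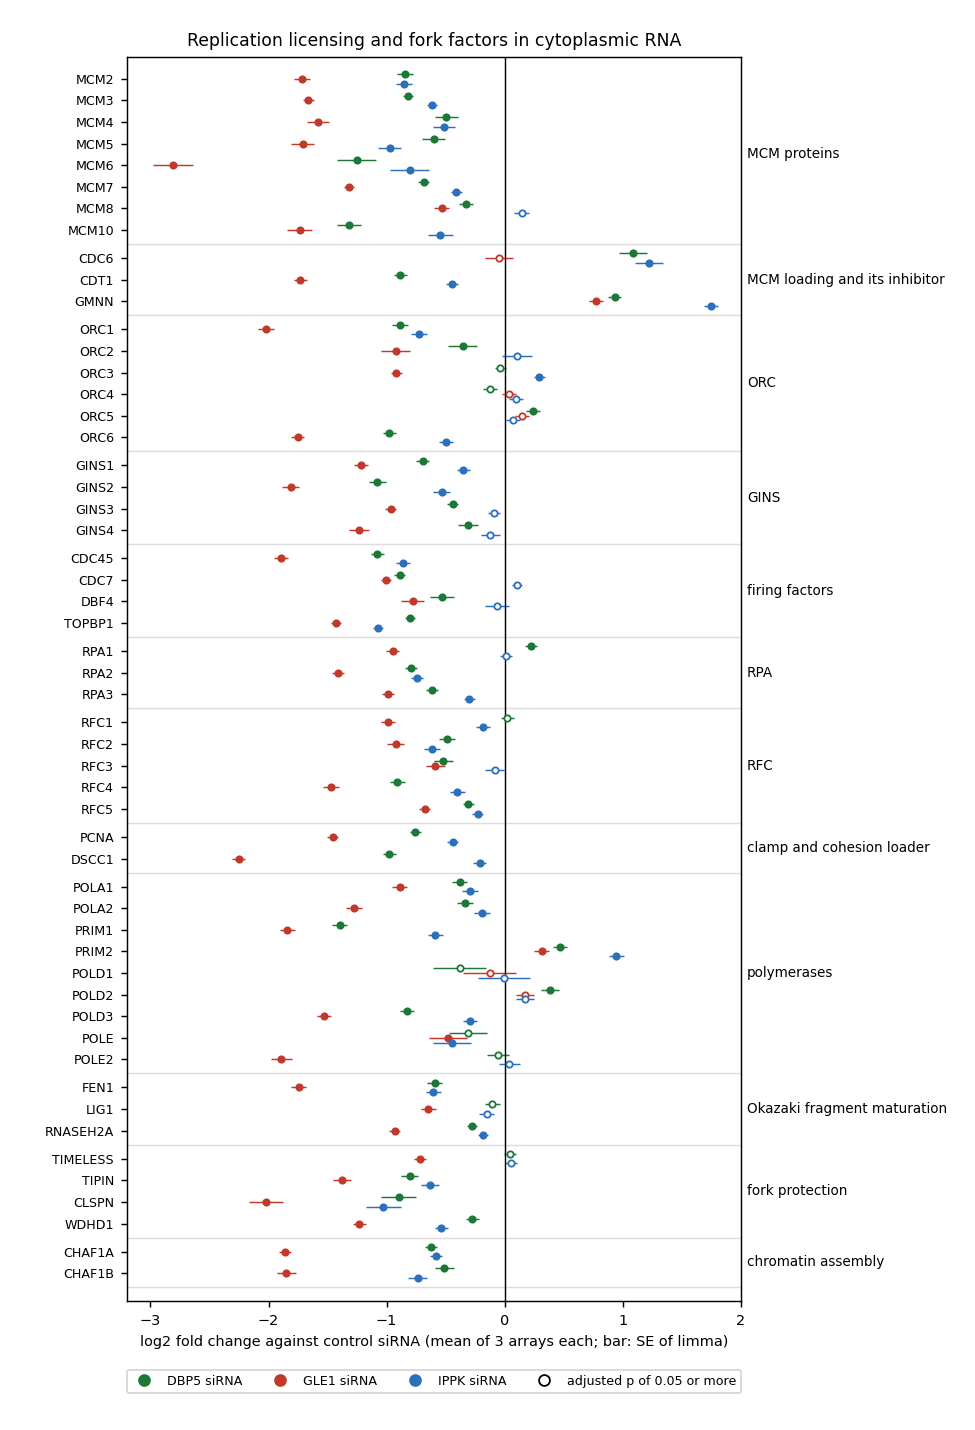
Log2 fold change of each of the 53 members against control siRNA (x axis) after DBP5 (green), GLE1 (red) and IPPK (blue) knock-down, grouped by subcomplex, with points for the difference of the means of 3 arrays each, bars for limma's SE and open points for an adjusted p of 0.05 or more. The red points lie farthest to the left in 49 of 53 rows, and the filled points of GMNN and PRIM2 lie right of 0 in all 3 colours, as do points of ORC5 and POLD2 that are filled after DBP5 knock-down.

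Most MCM genes fell together. All 8 MCM genes were lower with DBP5 or GLE1 siRNA and 7 with IPPK siRNA, with medians of -0.75, -1.69 and -0.58 on the log2 fold change scale. MCM6 (NM_005915), a subunit of the ring, had the largest mean shift over the 3 knock-downs, although MCM10 shifted further after DBP5 knock-down and MCM5 and MCM2 did so after IPPK knock-down. MCM6 had log2 intensities of 14.20, 14.27 and 14.12 on the control arrays, 13.04, 12.99 and 12.81 with DBP5 siRNA, 10.90, 11.65 and 11.62 with GLE1 siRNA and 13.33, 13.44 and 13.41 with IPPK siRNA. No array of a knock-down reached the control arrays, and GLE1 replicate 1 was lower than the other two GLE1 arrays. The ratio to control was 0.419 ± 0.035 with DBP5 siRNA, 0.143 ± 0.039 with GLE1 siRNA and 0.572 ± 0.022 with IPPK siRNA (SD, n = 3 arrays each), with limma adjusted p of 9.6e-05, 1.4e-07 and 0.00196.

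The other ring subunits, MCM2, MCM3, MCM4, MCM5 and MCM7, lay between 0.304 and 0.401 of control after GLE1 knock-down, between 0.556 and 0.71 after DBP5 and between 0.509 and 0.752 after IPPK knock-down. MCM10, which binds the helicase as it is activated, was at 0.401 ± 0.047 with DBP5 siRNA, 0.3 ± 0.0045 with GLE1 siRNA and 0.686 ± 0.011 with IPPK siRNA (SD, n = 3 each). MCM8 (NM_182802), which acts in recombination rather than in the ring, moved least. MCM8 had log2 intensities of 11.99, 11.97 and 11.99 on the control arrays, 11.73, 11.58 and 11.65 with DBP5 siRNA, 11.54, 11.36 and 11.45 with GLE1 siRNA and 12.21, 12.06 and 12.11 with IPPK siRNA. Its IPPK arrays lay above the control arrays, with a ratio of 1.1 ± 0.058 that did not pass the test (limma adjusted p = 0.0739) and did with the replicate number as a block.

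The genes that load the ring and the inhibitor of loading did not move together. CDT1 was lower after each knock-down, at 0.542 ± 0.014 of control with DBP5 siRNA, 0.301 ± 0.012 with GLE1 siRNA and 0.734 ± 0.024 with IPPK siRNA (SD, n = 3 each). GMNN (NM_015895), whose protein inhibits CDT1, was higher after each. GMNN had log2 intensities of 12.27, 12.37 and 12.26 on the control arrays, 13.35, 13.17 and 13.17 with DBP5 siRNA, 13.06, 13.10 and 13.06 with GLE1 siRNA and 14.09, 14.04 and 14.02 with IPPK siRNA. Every knock-down array was above every control array, and the IPPK arrays were the highest. The ratios were 1.9 ± 0.13, 1.71 ± 0.028 and 3.36 ± 0.084 with siRNA against DBP5, GLE1 and IPPK (SD, n = 3 each), with limma adjusted p of 3.8e-07, 8.0e-07 and 5.4e-09.

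CDC6 (NM_001254), the partner of CDT1, was higher after DBP5 and IPPK knock-down and not after GLE1 knock-down. CDC6 had log2 intensities of 6.31, 6.46 and 6.54 on the control arrays, 7.44, 7.62 and 7.52 with DBP5 siRNA, 6.08, 6.52 and 6.56 with GLE1 siRNA and 7.59, 7.74 and 7.65 with IPPK siRNA. The DBP5 and IPPK arrays stood clear of the control arrays, while the GLE1 arrays covered their range. The ratios were 2.13 ± 0.13, 0.967 ± 0.17 and 2.33 ± 0.13 with siRNA against DBP5, GLE1 and IPPK (SD, n = 3 each), with limma adjusted p of 2.3e-05, 0.758 and 9.5e-06. The CDC6 probe was the dimmest of those used for the members.

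The subunits of the origin recognition complex differed in their values. Of 6 subunits, 4 were lower after GLE1, 3 after DBP5 and 2 after IPPK knock-down, while ORC5 was higher after DBP5 and ORC3 after IPPK knock-down. The lower shares were 66.7% after GLE1 and 50% after DBP5 knock-down, against 31.5% and 27.5% of all genes. The higher share after DBP5 knock-down, 16.7%, lay below the 26.8% of all genes. With IPPK siRNA these shares, 33.3% lower and 16.7% higher, lay near the 28% lower of all genes and below the 27.3% higher, so the counts there say little of the complex. With the replicate number as a block, ORC5 was also called higher after GLE1 knock-down, at 0.15 on the log2 fold change scale. The medians of the log2 fold changes were -0.24 with DBP5 siRNA, -0.92 with GLE1 siRNA and 0.08 with IPPK siRNA. ORC1 (NM_004153), the large ATPase subunit, had the largest mean shift over the 3 knock-downs. ORC1 had log2 intensities of 10.01, 10.06 and 10.03 on the control arrays, 9.02, 9.24 and 9.17 with DBP5 siRNA, 8.08, 8.01 and 7.95 with GLE1 siRNA and 9.23, 9.38 and 9.31 with IPPK siRNA. It was below control on every knock-down array, at 0.54 ± 0.041, 0.247 ± 0.011 and 0.605 ± 0.03 of control with siRNA against DBP5, GLE1 and IPPK (SD, n = 3 each). ORC6, with a lower ratio than ORC1 after DBP5 knock-down, was at 0.508 ± 0.037, 0.297 ± 0.005 and 0.709 ± 0.0058.

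ORC3 (NM_181837) was lower after GLE1 knock-down and higher after IPPK knock-down. ORC3 had log2 intensities of 11.53, 11.50 and 11.47 on the control arrays, 11.52, 11.48 and 11.39 with DBP5 siRNA, 10.58, 10.59 and 10.58 with GLE1 siRNA and 11.81, 11.77 and 11.80 with IPPK siRNA. The GLE1 arrays lay below and the IPPK arrays above all control arrays, at ratios of 0.529 ± 0.0011 and 1.23 ± 0.019 (SD, n = 3 each, limma adjusted p of 3.2e-08 and 0.00024), and the DBP5 arrays overlapped the controls at 0.975 ± 0.042. ORC4 (NM_002552) passed the test in none of the comparisons with control. ORC4 had log2 intensities of 11.93, 12.03 and 11.89 on the control arrays, 11.91, 11.83 and 11.73 with DBP5 siRNA, 12.03, 11.95 and 11.97 with GLE1 siRNA and 12.04, 12.06 and 12.04 with IPPK siRNA. Its ratios were 0.917 ± 0.059, 1.02 ± 0.028 and 1.07 ± 0.01 in that order (SD, n = 3 each), and limma's adjusted p was at least 0.0973 in each.

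The GINS complex was lower in all 4 subunits after DBP5 and GLE1 knock-down and in GINS1 and GINS2 after IPPK knock-down. Its median log2 fold changes were -0.57, -1.22 and -0.24 with siRNA against DBP5, GLE1 and IPPK. GINS2 (NM_016095) had log2 intensities of 13.55, 13.69 and 13.67 on the control arrays, 12.41, 12.69 and 12.58 with DBP5 siRNA, 11.78, 11.89 and 11.80 with GLE1 siRNA and 13.05, 13.14 and 13.13 with IPPK siRNA. These are the largest shifts of the complex, and the 4 groups of arrays did not overlap. GINS3 (NM_022770), with the smallest mean shift over the 3 knock-downs, had log2 intensities of 13.76, 13.77 and 13.70 on the control arrays, 13.27, 13.32 and 13.31 with DBP5 siRNA, 12.83, 12.72 and 12.78 with GLE1 siRNA and 13.70, 13.66 and 13.60 with IPPK siRNA. The ratios of GINS2 were 0.473 ± 0.045, 0.285 ± 0.012 and 0.691 ± 0.022 and those of GINS3 0.736 ± 0.013, 0.512 ± 0.02 and 0.939 ± 0.031 (SD, n = 3 each), the last of which missed the threshold (limma adjusted p = 0.137).

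Among the factors that fire origins, CDC45 and TOPBP1 were lower after each knock-down, and both parts of the CDC7 kinase passed the test after DBP5 and GLE1 knock-down and not after IPPK knock-down. CDC45 (NM_003504), the helicase cofactor, had log2 intensities of 15.02, 15.13 and 15.01 on the control arrays, 13.96, 14.02 and 13.95 with DBP5 siRNA, 13.06, 13.26 and 13.17 with GLE1 siRNA and 14.20, 14.19 and 14.19 with IPPK siRNA. No group overlapped another, and the ratios were 0.474 ± 0.014, 0.269 ± 0.018 and 0.55 ± 0.002 (SD, n = 3 each). TOPBP1, a scaffold for helicase assembly that also activates the ATR kinase, was at 0.573 ± 0.0099, 0.371 ± 0.0059 and 0.476 ± 0.015 of control (SD, n = 3 each), and its fall after IPPK knock-down was the deepest of all members there.

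The kinase subunit CDC7 was at 0.539 ± 0.017 of control after DBP5 and 0.498 ± 0.014 after GLE1 knock-down, and at 1.08 ± 0.0063 after IPPK knock-down (SD, n = 3 each, limma adjusted p = 0.065 for the last). Between the knock-downs, CDC7 was 0.502 as high after DBP5 as after IPPK knock-down (limma adjusted p = 6.5e-08). DBF4 (NM_006716), its activating subunit, had log2 intensities of 12.54, 12.44 and 12.47 on the control arrays, 12.04, 11.68 and 12.13 with DBP5 siRNA, 11.65, 11.74 and 11.72 with GLE1 siRNA and 12.47, 12.43 and 12.36 with IPPK siRNA. The DBP5 and GLE1 arrays lay below the controls at 0.69 ± 0.11 and 0.582 ± 0.018, and the IPPK arrays overlapped them at 0.955 ± 0.04 (SD, n = 3 each). A much dimmer probe for DBF4 moved the other way, as given with the probes below. With the mean of its probes the direction turned after GLE1 and IPPK knock-down.

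RPA, the trimer that coats single strands, was lower in all 3 subunits after GLE1 knock-down and in RPA2 and RPA3 after the others. RPA1 (NM_002945), the large DNA-binding subunit, had log2 intensities of 14.03, 14.10 and 14.00 on the control arrays, 14.24, 14.31 and 14.25 with DBP5 siRNA, 13.07, 13.18 and 13.04 with GLE1 siRNA and 14.08, 14.03 and 14.06 with IPPK siRNA. Its DBP5 arrays lay above and its GLE1 arrays below all controls, with ratios of 1.17 ± 0.034 and 0.518 ± 0.027 (SD, n = 3 each, limma adjusted p of 0.0041 and 8.0e-08), and the IPPK ratio was 1.01 ± 0.017. A dimmer RPA1 probe had log2 fold changes of 0.00, -0.92 and -0.45 in the same order, and with the mean of both probes the DBP5 value, 0.11, no longer passed the test and the IPPK value, -0.22, did. RPA2 (NM_002946) had log2 intensities of 14.26, 14.22 and 14.24 on the control arrays, 13.41, 13.54 and 13.39 with DBP5 siRNA, 12.85, 12.82 and 12.82 with GLE1 siRNA and 13.45, 13.54 and 13.51 with IPPK siRNA. RPA2 was below control on every knock-down array, at 0.578 ± 0.032, 0.377 ± 0.0035 and 0.599 ± 0.02 (SD, n = 3 each), and its DBP5 and IPPK arrays overlapped.

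The clamp loader RFC was lower in all 5 subunits after GLE1 knock-down and in 4 after each of the others, RFC1 missing the threshold after DBP5 and RFC3 after IPPK knock-down. RFC4 (NM_002916), a small subunit, had log2 intensities of 14.18, 14.23 and 14.14 on the control arrays, 13.33, 13.22 and 13.26 with DBP5 siRNA, 12.77, 12.67 and 12.69 with GLE1 siRNA and 13.92, 13.67 and 13.75 with IPPK siRNA. Its groups did not overlap, and its ratios were 0.532 ± 0.021, 0.361 ± 0.013 and 0.758 ± 0.066 (SD, n = 3 each). RFC3 (NM_002915), another small subunit, had log2 intensities of 10.29, 10.32 and 10.25 on the control arrays, 9.89, 9.84 and 9.56 with DBP5 siRNA, 9.64, 9.69 and 9.75 with GLE1 siRNA and 10.14, 10.25 and 10.21 with IPPK siRNA. These give ratios of 0.697 ± 0.084, 0.665 ± 0.025 and 0.943 ± 0.034 (SD, n = 3 each), and the DBP5 and GLE1 arrays overlapped. Another RFC3 probe fell further after GLE1 knock-down, as given with the probes below.

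The clamp and its alternative loader were lower after each knock-down. PCNA was at 0.592 ± 0.0017 of control with DBP5 siRNA, 0.364 ± 0.0083 with GLE1 siRNA and 0.737 ± 0.022 with IPPK siRNA (SD, n = 3 each). DSCC1 (NM_024094), a subunit of the CTF18 loader that serves sister chromatid cohesion, had log2 intensities of 12.16, 12.30 and 12.19 on the control arrays, 11.26, 11.25 and 11.21 with DBP5 siRNA, 9.92, 10.02 and 9.96 with GLE1 siRNA and 11.93, 12.06 and 12.03 with IPPK siRNA. Its 4 groups were separate, at 0.507 ± 0.0076, 0.21 ± 0.0078 and 0.863 ± 0.04 of control (SD, n = 3 each), and after GLE1 knock-down only MCM6 of the members had a lower ratio.

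Of 9 polymerase subunits, 4 were lower and 2 higher after DBP5, 6 lower and 1 higher after GLE1, and 5 lower and 1 higher after IPPK knock-down, with medians of -0.34, -0.89 and -0.19 on the log2 fold change scale. The higher calls, 22.2%, 11.1% and 11.1% of the subunits, lay below the 26.8%, 30.6% and 27.3% of all genes. In the primase, which lays down the RNA primers with polymerase alpha, the catalytic subunit fell and the large subunit rose by the brightest probes. PRIM1 (NM_000946) had log2 intensities of 13.46, 13.58 and 13.44 on the control arrays, 12.08, 12.17 and 12.04 with DBP5 siRNA, 11.57, 11.73 and 11.66 with GLE1 siRNA and 12.87, 12.95 and 12.90 with IPPK siRNA. Its ratios were 0.379 ± 0.019, 0.279 ± 0.015 and 0.666 ± 0.018 (SD, n = 3 each), and no groups overlapped.

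PRIM2 (NM_000947) had log2 intensities of 11.73, 11.77 and 11.73 on the control arrays, 12.33, 12.15 and 12.16 with DBP5 siRNA, 12.16, 12.01 and 11.999 with GLE1 siRNA and 12.70, 12.69 and 12.68 with IPPK siRNA. Every knock-down array was above every control array, at ratios of 1.38 ± 0.1, 1.24 ± 0.077 and 1.92 ± 0.0099 (SD, n = 3 each, limma adjusted p of 9.0e-05, 0.0012 and 4.6e-07). Another PRIM2 probe was lower in all 3 knock-downs, so the direction for this gene depends on the probe, and the mean of the probes was at 0.01 after DBP5 and -0.27 after GLE1 knock-down on the log2 scale. The polymerase alpha subunits POLA1 and POLA2 were at 0.54 ± 0.034 and 0.414 ± 0.0058 of control after GLE1 knock-down and between 0.768 and 0.875 after the others (SD, n = 3 each).

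POLE2 (NM_002692), the second subunit of the leading-strand polymerase epsilon, passed the test after GLE1 knock-down alone. POLE2 had log2 intensities of 11.49, 11.53 and 11.43 on the control arrays, 11.59, 11.45 and 11.24 with DBP5 siRNA, 9.74, 9.49 and 9.55 with GLE1 siRNA and 11.55, 11.55 and 11.46 with IPPK siRNA. The GLE1 arrays stood far below all others, at a ratio of 0.27 ± 0.024, and the other arrays overlapped the controls at 0.962 ± 0.11 and 1.03 ± 0.035 (SD, n = 3 each). The differences of the GLE1 arrays from the DBP5 and IPPK arrays were -1.83 and -1.93 on the log2 scale (limma adjusted p of 6.9e-08 and 3.4e-08). The catalytic subunit POLE was at 0.806 ± 0.25, 0.717 ± 0.023 and 0.735 ± 0.036 of control with siRNA against DBP5, GLE1 and IPPK (SD, n = 3 each). DBP5 replicate 3 set it apart with a log2 intensity of 8.67 against 7.98 and 7.94 on the other DBP5 arrays, and without that array the DBP5 fold change was -0.55 on the log2 scale and passed the test.

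Of the lagging-strand polymerase delta, POLD3 was at 0.564 ± 0.034, 0.346 ± 0.0044 and 0.814 ± 0.019 of control with siRNA against DBP5, GLE1 and IPPK (SD, n = 3 each), while POLD2 was higher after DBP5 knock-down at 1.31 ± 0.044 (limma adjusted p = 0.00157). POLD1 (NM_002691), the catalytic subunit, passed the test in none of the comparisons with control. POLD1 had log2 intensities of 12.78, 12.88 and 12.90 on the control arrays, 12.45, 12.45 and 12.51 with DBP5 siRNA, 12.76, 12.72 and 12.70 with GLE1 siRNA and 13.23, 12.16 and 13.15 with IPPK siRNA. IPPK replicate 2 lay below all other arrays and the other two IPPK arrays above them. Without that array the IPPK log2 fold change was 0.34 in place of -0.01 and passed the test, and that of DBP5, -0.38, then passed too.

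Among the enzymes that finish the lagging strand, all 3 were lower after GLE1 knock-down and FEN1 and RNASEH2A after each. FEN1 (NM_004111), the flap nuclease, had log2 intensities of 12.89, 12.79 and 12.89 on the control arrays, 12.23, 12.29 and 12.28 with DBP5 siRNA, 11.23, 11.02 and 11.08 with GLE1 siRNA and 12.29, 12.19 and 12.28 with IPPK siRNA. The ratios were 0.663 ± 0.015, 0.298 ± 0.023 and 0.658 ± 0.024 (SD, n = 3 each), and the DBP5 and IPPK arrays overlapped. LIG1 (NM_000234), the ligase, had log2 intensities of 12.60, 12.63 and 12.72 on the control arrays, 12.49, 12.66 and 12.50 with DBP5 siRNA, 12.04, 12.05 and 11.93 with GLE1 siRNA and 12.53, 12.47 and 12.50 with IPPK siRNA. It was at 0.931 ± 0.065, 0.639 ± 0.029 and 0.9 ± 0.02 of control (SD, n = 3 each), of which the GLE1 value passed the test (limma adjusted p = 5.8e-06).

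The fork protection factors held CLSPN, lower after each knock-down, and TIMELESS, which passed the test after GLE1 knock-down alone. CLSPN (NM_022111), the claspin mediator of the replication checkpoint, had log2 intensities of 9.52, 9.50 and 9.83 on the control arrays, 8.70, 8.41 and 9.04 with DBP5 siRNA, 7.47, 7.70 and 7.62 with GLE1 siRNA and 8.64, 8.59 and 8.54 with IPPK siRNA. All knock-down arrays lay below the controls, at ratios of 0.536 ± 0.12, 0.247 ± 0.02 and 0.491 ± 0.016 (SD, n = 3 each), and DBP5 and IPPK arrays overlapped. TIMELESS (NM_003920), the partner of TIPIN at the fork, had log2 intensities of 14.14, 14.23 and 14.09 on the control arrays, 14.24, 14.21 and 14.14 with DBP5 siRNA, 13.47, 13.44 and 13.39 with GLE1 siRNA and 14.24, 14.17 and 14.21 with IPPK siRNA. The GLE1 arrays alone lay below the controls, at 0.608 ± 0.017 (SD, n = 3, limma adjusted p = 6.5e-07). TIPIN itself was at 0.573 ± 0.041, 0.385 ± 0.0069 and 0.645 ± 0.025 of control, and WDHD1, which ties polymerase alpha to the helicase, at 0.827 ± 0.018, 0.426 ± 0.019 and 0.69 ± 0.021 (SD, n = 3 each).

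Both large subunits of the histone chaperone CAF-1 were lower after each knock-down. CHAF1B (NM_005441) had log2 intensities of 11.68, 11.90 and 11.73 on the control arrays, 11.29, 11.29 and 11.20 with DBP5 siRNA, 9.81, 10.04 and 9.91 with GLE1 siRNA and 10.92, 11.09 and 11.08 with IPPK siRNA. Its groups did not overlap, and its ratios were 0.702 ± 0.026, 0.277 ± 0.022 and 0.599 ± 0.04 (SD, n = 3 each). CHAF1A was at 0.649 ± 0.013, 0.275 ± 0.016 and 0.667 ± 0.021 of control (SD, n = 3 each).

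**Figure D2:**
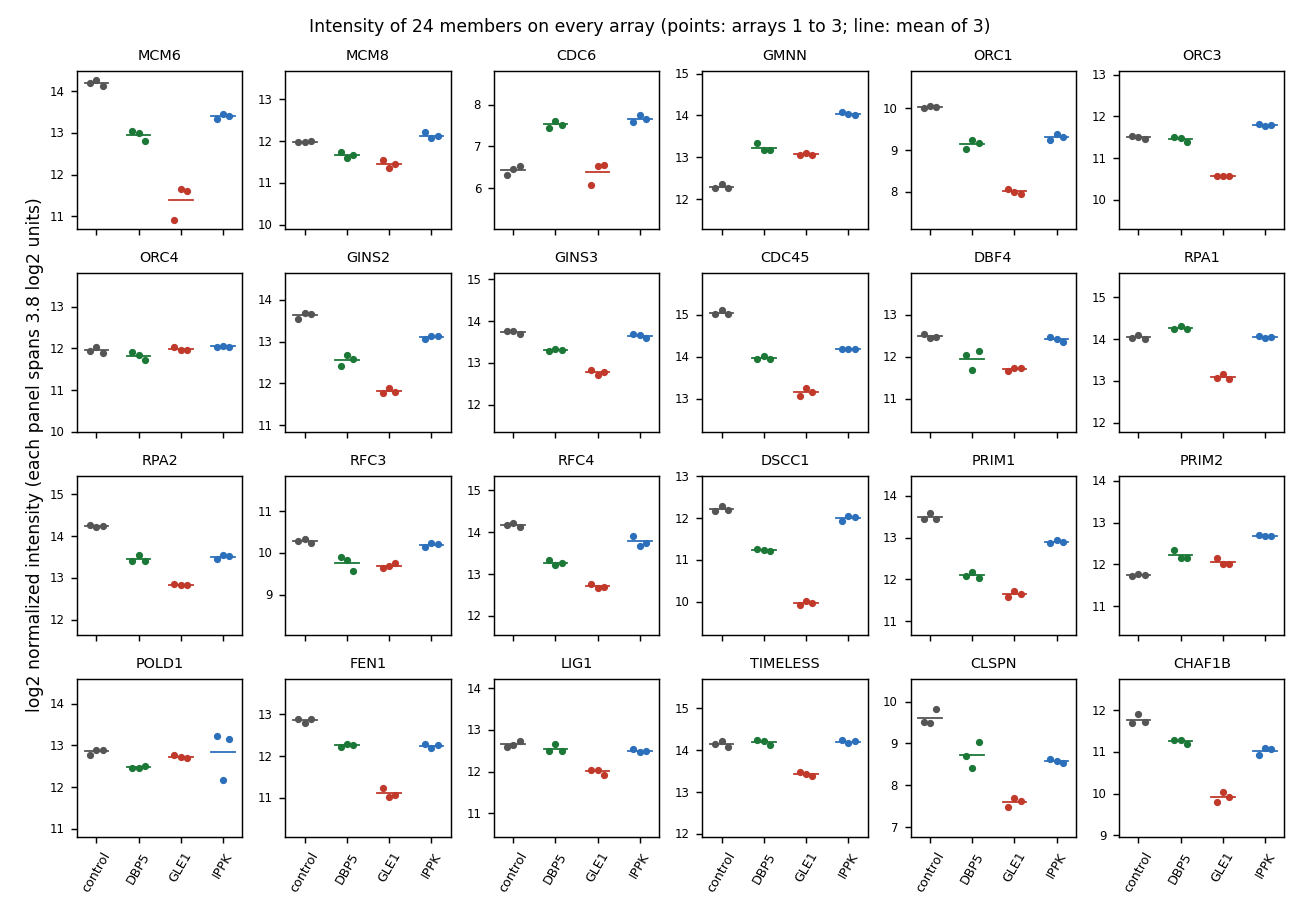
Log2 normalized intensity of 24 members on each of the 12 arrays (y axis, 3.8 log2 units in every panel, with a position of its own) by siRNA (x axis), with a point for each array and a line for the mean of 3. The GLE1 arrays of MCM6 reach 10.90, the IPPK arrays of GMNN are its highest, and IPPK replicate 2 of POLD1 stands apart at 12.16.

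Set side by side on each array, the subcomplexes kept apart from the controls in most cases. The median over the MCM genes, taken against the mean of the control arrays, was between -0.84 and -0.68 on the DBP5 arrays, between -1.70 and -1.67 on the GLE1 arrays and between -0.61 and -0.58 on the IPPK arrays, on the log2 scale. For ORC the IPPK arrays, from 0.00 to 0.09, overlapped the control arrays, from -0.02 to 0.01, and for the loading genes the GLE1 arrays did, from -0.36 to 0.13. In each of the other subcomplexes all knock-down arrays lay below all control arrays. In chromatin assembly the IPPK arrays, from -0.74 to -0.62, lay below the DBP5 arrays, from -0.58 to -0.56, and in fork protection the ranges overlapped, at -0.61 to -0.54 and -0.57 to -0.43. Subcomplexes were not tested against each other.

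**Figure D3:**
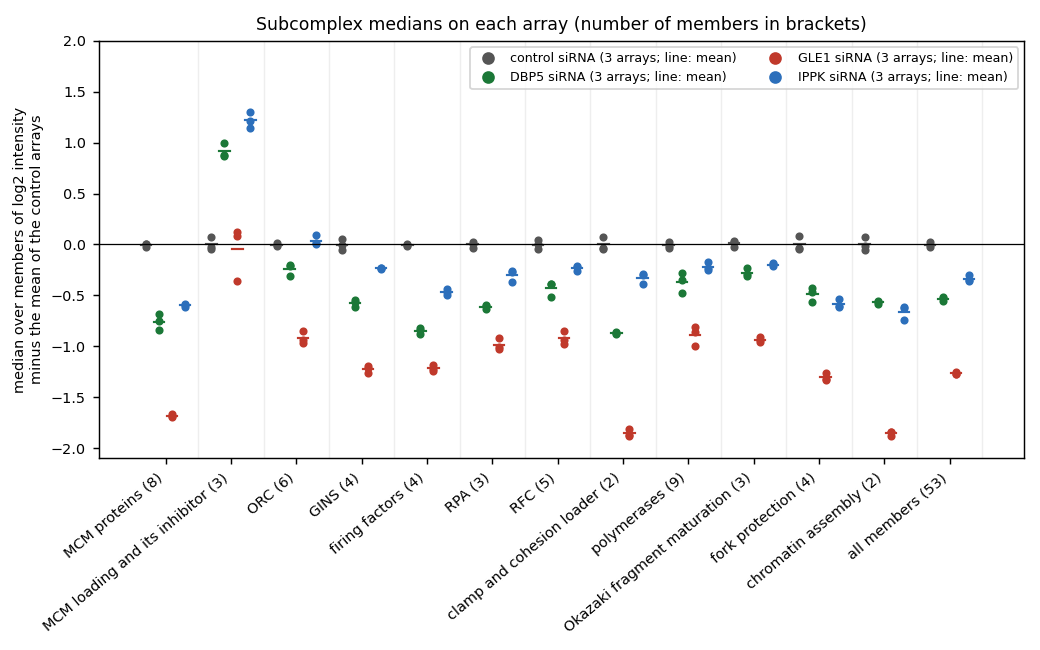
Median over the members of each subcomplex of the log2 intensity minus the mean of the control arrays (y axis), by subcomplex with its number of members (x axis), with a point for each of the 3 arrays per siRNA and a line for their mean. The GLE1 arrays are the lowest in every subcomplex but MCM loading, where they lie between -0.36 and 0.13 and overlap the controls.

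The knock-downs were also compared with each other, as siRNA treatments. Their targets were left at unlike levels, and some targets also fell with another siRNA, as given above. A difference therefore does not compare the factors themselves. These comparisons share the arrays of each knock-down. GLE1 knock-down was lower than DBP5 knock-down for 46 members and higher for 1, ORC4, where 28% of all genes were lower and 26.5% higher. The median difference of the members was -0.66 on the log2 scale. The ORC4 difference of 0.16 (limma adjusted p = 0.0403) was lost under several alternatives given in the closing section. No call was made for ORC5, DBF4, RFC3, PRIM2, POLD1 and POLE, of which PRIM2, at -0.15, passed the test with the replicate number as a block.

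GLE1 knock-down was lower than IPPK knock-down for 48 members, where 30.8% of all genes were lower, and no call was made for ORC4, ORC5, POLD1, POLD2 and POLE. Of all genes, 29.4% were higher. For ORC4, at -0.06 on the log2 scale, the direction turned with the mean of its probes. The median difference was -0.96 on the log2 scale. The widest gaps to IPPK knock-down were those of DSCC1, MCM6 and POLE2, at -2.04, -2.00 and -1.93 in log2 intensity, and the same members were at -1.27, -1.55 and -1.83 against DBP5 knock-down. The smallest differences from DBP5 knock-down that passed the test were those of CDC7, at -0.12, and GMNN, at -0.15 (limma adjusted p of 0.0441 and 0.0446).

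DBP5 and IPPK knock-down differed less. DBP5 knock-down was lower for 25 members and higher for 8, where 25.1% of all genes were lower and 23.8% higher, and the median difference was -0.19 on the log2 scale. CDC7 had the largest difference at -0.995, followed by GMNN at -0.82, PRIM1 at -0.81 and MCM10 and DSCC1 at -0.77. The 8 members that were higher after DBP5 than after IPPK knock-down were MCM5, ORC5, TOPBP1, RPA1, RFC1, POLD2, WDHD1 and CHAF1B, by 0.17 to 0.37 on the log2 scale. These calls were not stable: a paired test of each gene on its own gave 10 lower and 0 higher, scaling to the 75th percentile or no filter gave 5 higher, and 4 were higher without DBP5 replicate 2. For MCM2, with a difference of 0.00, MCM4, with 0.02, FEN1, with 0.01, and CHAF1A, with -0.04, no call was made.

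**Figure D4:**
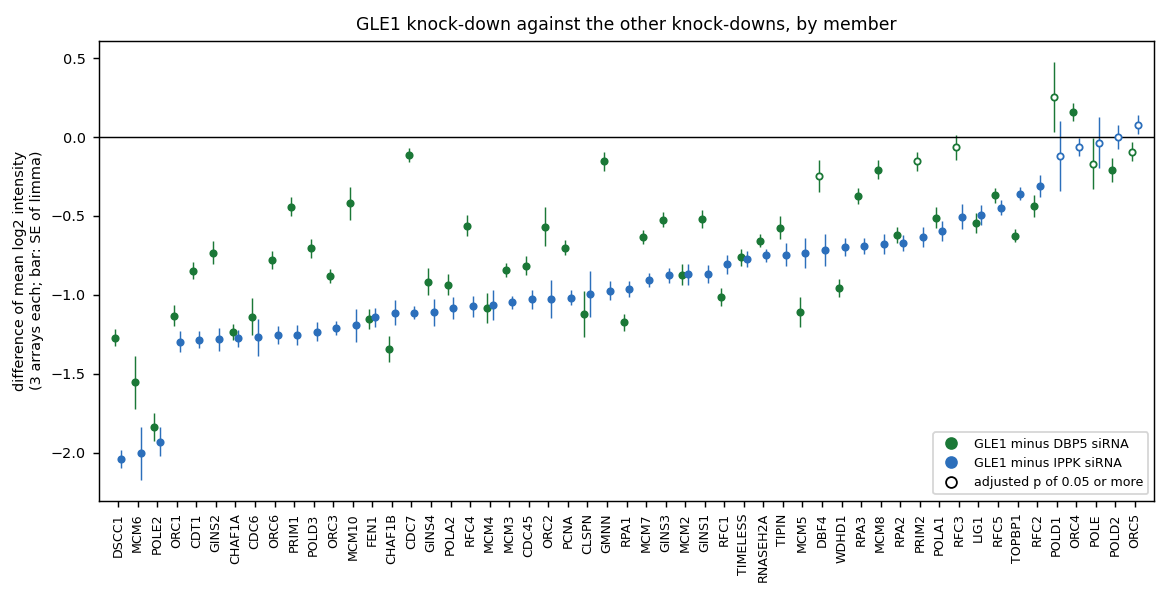
Difference of mean log2 intensity (y axis, 3 arrays each, bars for limma's SE) of GLE1 knock-down from DBP5 (green) and from IPPK knock-down (blue) for the 53 members, ordered by the latter (x axis), with open points for an adjusted p of 0.05 or more. Filled points lie below 0 for 46 members against DBP5 and for 48 against IPPK knock-down, and the exception above 0 is ORC4 against DBP5.

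Of the 53 members, 40 had 1 probe and 13 had more, 27 probes in all. Every probe of the gene was lower for 9 of the 13 members after GLE1, 7 after DBP5 and 6 after IPPK knock-down. The same share over all genes with more than 1 probe is not given here, so whether these counts are unusual was not tested. The pairs for RPA2 and PCNA agreed closely, with log2 fold changes after GLE1 knock-down of -1.41 and -1.41 for RPA2 and -1.46 and -1.47 for PCNA. The pair for RFC3 differed in size, at -0.59 and -1.48 after GLE1 knock-down. In 2 members, DBF4 and PRIM2, probes passed the test in opposite directions.

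The brightest DBF4 probe had log2 fold changes of -0.53, -0.78 and -0.07 with siRNA against DBP5, GLE1 and IPPK, and the other, at a mean log2 intensity of 5.23 in control against 12.49, had 0.36, 0.83 and 1.76 (limma adjusted p of 0.0128, 4.2e-05 and 2.2e-07). Both are listed under the same transcript. For PRIM2, also under 1 transcript, a pair of probes gave 0.47, 0.31 and 0.94 and 0.42, 0.37 and 0.96, and the other gave -0.87, -1.501 and -0.69. The other ORC4 probe was higher after GLE1 knock-down, at 0.63, where the brightest was at 0.03. The array does not say which part of the transcript each probe reads in a way used here, so which probe follows the full mRNA was not tested.

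**Figure D5:**
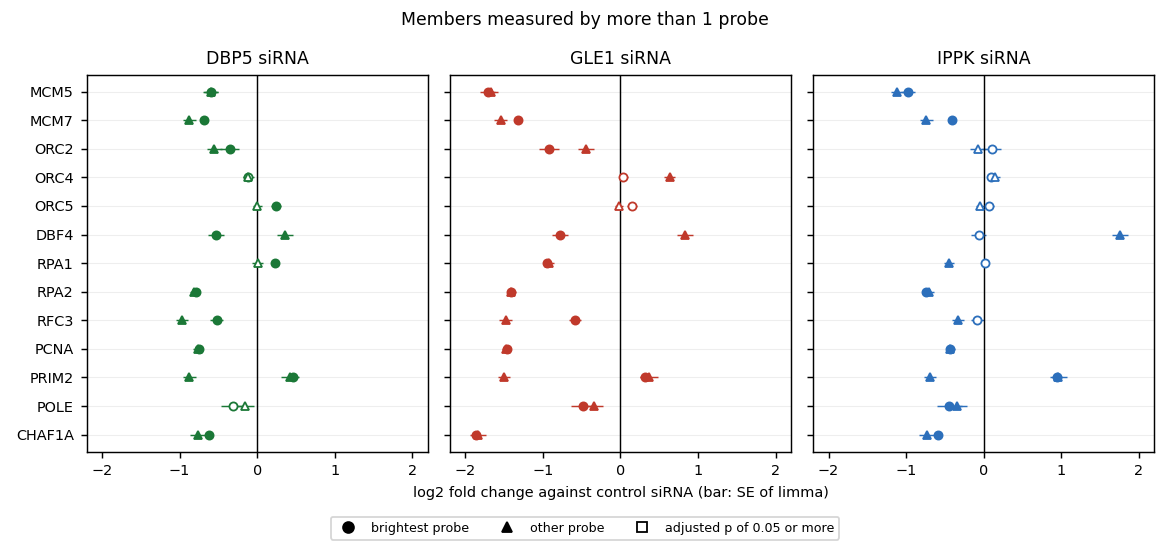
Log2 fold change against control siRNA (x axis, bars for limma's SE) with siRNA against DBP5, GLE1 and IPPK for the 13 members with more than 1 probe (y axis), with circles for the brightest probe, triangles for the others and open symbols for an adjusted p of 0.05 or more. The symbols of MCM5, RPA2, PCNA and CHAF1A nearly coincide after GLE1 knock-down, and those of DBF4 and PRIM2 lie on both sides of 0.

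A further 37 genes of DNA replication that are not members were all tested. Of these, 18 were lower and 8 higher with DBP5 siRNA, 27 lower and 4 higher with GLE1 siRNA and 16 lower and 8 higher with IPPK siRNA, with median log2 fold changes of -0.21, -0.86 and -0.16. As shares, 48.6%, 73% and 43.2% were lower, against 27.5%, 31.5% and 28% of all genes, and 21.6%, 10.8% and 21.6% were higher, below the 26.8%, 30.6% and 27.3% of all genes. ASF1B, a histone chaperone that works with CAF-1, was at 0.645, 0.239 and 0.525 of control with siRNA against DBP5, GLE1 and IPPK, and its paralog ASF1A was at 1.66, 2.38 and 1.79, all past the test. ATAD5, which unloads PCNA, was at 0.522, 0.299 and 0.769, and PCLAF, which binds PCNA, at 0.602, 0.35 and 0.642. TOP2B, the topoisomerase II isoform that non-dividing cells also use, was at 4.66, 3.15 and 3.68 of control, while TOP2A was at 0.755, 0.391 and 0.629.

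Among the 5 genes that turn over CDT1, DDB1 was lower after DBP5 knock-down at 0.55 of control and higher after GLE1 and IPPK knock-down at 1.39 and 1.22. The substrate receptor DTL was at 0.701 and 0.464 after DBP5 and GLE1 knock-down, and the F-box protein SKP2 at 0.523 after GLE1 and 1.45 after IPPK knock-down, all past the test. MTBP, which acts with TICRR in firing, was lower after GLE1 at 0.469 and higher after IPPK knock-down at 1.67. MCM9, the partner of MCM8, was lower after DBP5 at 0.631 and higher after GLE1 knock-down at 1.53.

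Transcripts that vary with the cell cycle moved beside the members. Of 8 such markers, 6 were lower with DBP5 siRNA, 6 with GLE1 siRNA and 5 with IPPK siRNA, and 1, 2 and 1 higher, where 27.5%, 31.5% and 28% of all genes were lower and 26.8%, 30.6% and 27.3% higher. CCNE1 and CCNE2, the cyclins of S phase entry, had log2 fold changes of -0.82, -1.11 and -0.80 and of -1.28, -2.70 and -0.57 with siRNA against DBP5, GLE1 and IPPK. CCNA2, the cyclin of S and G2 phase, was lower after GLE1 knock-down, at -1.30, and at -0.03 and 0.17 after the others. CCNB1, CDC20 and MKI67, markers of G2 and mitosis or of dividing cells, were between -1.65 and -1.18 after GLE1 and between -0.89 and -0.39 after the other knock-downs. CDKN1A, the inhibitor of cyclin-dependent kinases, was higher at 0.59, 2.048 and 0.68, and CCND1 was at -0.68, 0.64 and -0.12. The part of cell cycle position in the member values was not tested.

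Of the RNAs known to stay in the nucleus, MALAT1 had log2 fold changes of -0.53, -0.33 and -1.08 with siRNA against DBP5, GLE1 and IPPK, the last past the test, and KCNQ1OT1 was higher at 0.64, 0.84 and 0.22. Of the 6 markers of other cell types, 1 was called higher after each knock-down. That share, 16.7%, lay below the 26.8%, 30.6% and 27.3% of all genes. The highest ratios among the 6 were 1.92, 9.86 and 2.46 of control with siRNA against DBP5, GLE1 and IPPK. CDH1 was not well above background on the control arrays and was so on 3 DBP5, 3 GLE1 and 2 IPPK arrays. EPCAM was lower after DBP5 and IPPK knock-down, at 0.657 and 0.528 of control, and PECAM1, well above background on 1 control and 3 GLE1 arrays, was called lower after IPPK knock-down. Of the 5 markers of the line, 2 were lower and 1 higher with DBP5 siRNA, 1 lower with GLE1 siRNA and 3 lower with IPPK siRNA, where 27.5%, 31.5% and 28% of all genes were lower. The higher share with DBP5 siRNA, 20%, lay below the 26.8% of all genes. The 3 with IPPK siRNA were COL1A1, at 0.252 of control, RUNX2, at 0.615, and COL1A2, which was not well above background on the IPPK arrays. Their part in the member values was not tested.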

How the data were processed

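The 12 arrays, 3 per siRNA, were one-colour Agilent arrays of cytoplasmic RNA, with groups and replicate numbers from the sample labels. The authors deposited the Feature Extraction 10.7.3.1 output of each array (version per the file headers), whose linear spot intensity has the local background subtracted, and their own processed log2 values in a table, which the authors' methods describe as normalized by LOESS in R. In these intensity files 0 spots were marked saturated.

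From the background-subtracted intensity, the 169 to 358 outlier spots per array were left out, spots of a probe were averaged, and cyclic loess between arrays was run on the log2 values. Names came from matching probe accessions to a RefSeq table (GRCh38.p14, 77.5% of 34127 probes named), which served for names and promoters, since the array design names hg19. The brightest probe stood for a gene, and a gene was tested if that probe was well above background on every array of 1 or more siRNAs. Group means were compared with limma 3.58.1 in R 4.3.3 fitted to the 12 arrays together, in two-sided tests adjusted by Benjamini-Hochberg within each contrast. A ratio is the difference of log2 means turned back, its SD that of the 3 arrays' ratios. Tables and figures used Python 3.11.15, pandas 2.3.3, numpy 2.4.6 and matplotlib 3.10.9, and simulated data served to test the limma fit. The precision is limited by the number of arrays.

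The members and lists were chosen with earlier results of these data known. Values on every array are given for the members with the largest and smallest mean shift in each subcomplex (only the largest in those of fewer than 3), those lower in 1 knock-down and higher in another, those called in none and those whose probes gave opposite calls. POLE2 was added because comparisons between knock-downs turn on it. Lists beside the members were 37 other replication genes, 8 cell cycle markers, 5 markers of the line, 6 of other cell types and nuclear RNAs, of which NEAT1 was not matched. The replicate number marks the slide. Deviations from group means correlated at 0.318 to 0.513 across genes in 18 same-numbered pairs of arrays and at -0.285 to -0.0495 in 36 others, so the numbers pair the arrays, and the fit with the number as a block was run as an alternative. Further settings tried were quantile normalization or the 75th percentile as scaling, normexp correction (offset 50), the deposited processed table, no filter or one requiring 12 arrays, averaging the probes of a gene, each probe on its own, a fit to only the 6 arrays compared, a two-sided paired test of each gene on its own, without limma's shared variance, and each array left out. The methods name rank products for the arrays, which were not run here. The labels do not say that the 3 arrays came from separate cultures, and the methods call them independent.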

Additional observations from a re-analysis of the deposited data

How the results depend on the processing

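The counts of members lower than control kept within 1.5 times their values under every alternative run, from 28 to 41 after DBP5, 45 to 46 after GLE1 and 27 to 36 after IPPK knock-down. With the replicate number as a block, 39, 46 and 34 members were lower and 6, 3 and 5 higher than control, 47 were lower and 1 higher after GLE1 than DBP5 knock-down, 48 lower after GLE1 than IPPK, and 25 lower and 8 higher after DBP5 than IPPK. The block thus moved no count by over 1.5 times. It changed the calls of ORC5, MCM8 and PRIM2 given in the report and no other call among the members. Members higher than control numbered 3 after DBP5 knock-down with the mean of a gene's probes and 3 with the paired test of each gene on its own, and 1 after GLE1 knock-down with that test. The single member higher after GLE1 than DBP5 knock-down, ORC4, was lost (0 members) with the 75th percentile, quantile normalization, no filter and the paired test, and the count was 0 to 1 with an array left out. The mean of probes gave 1 member higher after GLE1 than IPPK knock-down. After DBP5 against IPPK knock-down, the paired test gave 10 lower and 0 higher (25 and 3 at an unadjusted p of 0.05), the 75th percentile and no filter gave 5 higher each, and with an array left out 4 to 8 were higher, 4 without DBP5 replicate 2 and 5 without GLE1 replicate 3 or IPPK replicate 3. The direction turned for DBF4 after GLE1 (0.027 on the log2 scale, both with the mean of probes and as the median over its probes when each was tested on its own) and IPPK (0.84, mean of probes), PRIM2 after GLE1 (-0.27), RPA1 after IPPK (-0.22) and ORC4 of GLE1 against IPPK (0.21), the last 3 with the mean of probes, and for POLD1 after IPPK (0.34) without IPPK replicate 2, where leaving out an array gave -0.20 to 0.34. The cause was not tested. No scaling moved the median of all genes by over 0.1.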
